A study of Apis mellifera with 18 samples.

Results

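Tret1, the facilitated trehalose transporter, was followed as 1 gene row, GB48936, out of the 15314 gene rows measured in queen honeybee (Apis mellifera) brains. It was chosen by its counts in these libraries, which had been higher after both kinds of insemination than in the controls of both experiments. Its values against controls are therefore given as a description without a test. A near-identifier row, GB48934, was set beside it. All 18 libraries were used, each made from a pool of 3 brains, with 3 pools (replicates A, B and C) in each of 6 groups. In RNA-seq Experiment 1, queens received 6 µl of seminal fluid, 6 µl of semen, or a mock insemination in which no fluid was injected. In RNA-seq Experiment 2, queens received 6 µl of seminal fluid, 6 µl of semen, or 6 µl of Hayes saline, a salt solution. All queens, controls included, were unmated queens raised from larvae of 1 colony, were exposed to CO2 4 days after hatching and were inseminated 1 day later under CO2 sedation. Brains, with the optic lobes, were taken from heads frozen 24 hr after insemination.

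Trehalose is the main sugar of insect blood. It is made largely in the fat body and moves between blood and tissues through transporters such as Tret1, which carry it across the cell membrane along its concentration gradient. Inside cells it is split into glucose by trehalase. In the Drosophila nervous system, glial cells at the blood-brain barrier take up trehalose and pass products of its breakdown to neurons. The name of GB48936 is the best sequence match given by the study, and no source used here pairs it with the RefSeq gene of the same symbol. GB48934 carried no name in the sources used here.

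Gene counts summed to between 26636844 and 51745752 per library. Of these, Tret1 received 26 to 292 counts and GB48934 received 5 to 83, so both are rows of few reads. Levels are given in CPM, counts brought to a common library total, after scaling by TMM, a factor per library that lines up the bulk of genes, over all 18 libraries. The experiments differed widely: 50.5% of 12052 genes passed the test between the Hayes saline pools of Experiment 2 and the mock pools of Experiment 1, and TMM factors were 1.12 to 1.34 in Experiment 2 and 0.693 to 0.905 in Experiment 1. The kind of control and the experiment cannot be told apart.

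Brains of queens given seminal fluid or semen held 2.55 to 3.36 times as much Tret1 RNA as those of control queens. In Experiment 1, Tret1 stood at 4.95, 3.78 and 6.97 CPM in the seminal fluid pools. It stood at 5.87, 4.86 and 4.98 CPM in the semen pools, and at 1.89, 1.17 and 1.62 CPM in the mock pools. Each of the 6 inseminated pools lay above each mock pool, with no overlap. Group means were 5.24 ± 1.61 CPM after seminal fluid, 5.24 ± 0.550 CPM after semen and 1.56 ± 0.362 CPM after mock insemination (SD, n = 3 each).

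In Experiment 2, Tret1 stood at 4.18, 4.13 and 3.73 CPM in the seminal fluid pools. The semen pools had 4.91, 4.04 and 6.05 CPM, and the Hayes saline pools had 1.28, 1.82 and 1.61 CPM. Again the inseminated pools and the saline pools did not overlap. Means were 4.01 ± 0.248 CPM after seminal fluid, 5.00 ± 1.01 CPM after semen and 1.57 ± 0.274 CPM after saline (SD, n = 3 each). In pooled whole brains, a change in the number of cells that make this RNA and a change in RNA per cell cannot be told apart.

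**Figure D1:**
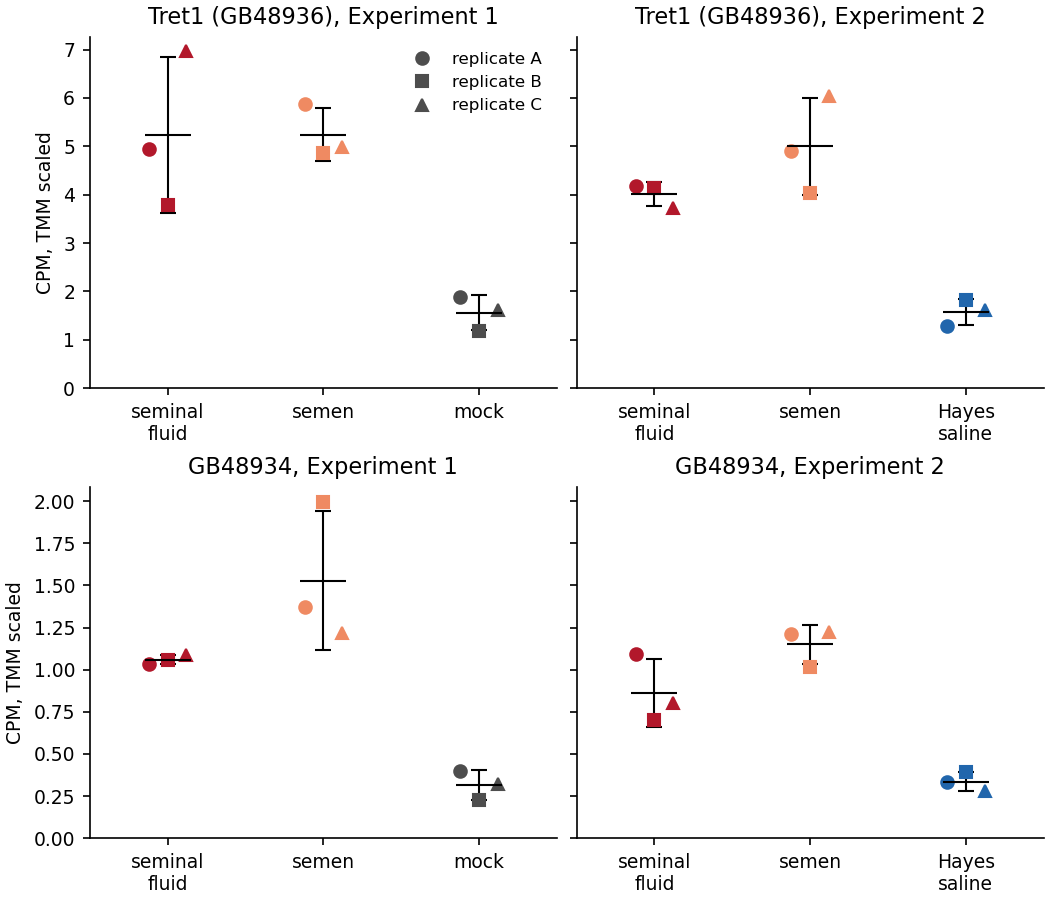
Level of Tret1 (top) and of GB48934 (bottom) in CPM scaled by TMM, on axes that start at 0, in the seminal fluid, semen and control pools of each experiment. Symbols are single pools by replicate letter, and bars are the mean ± SD of 3 pools. Every inseminated pool lies above every control pool of its experiment for both genes.

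On the log2 scale, Tret1 was 1.75 higher after seminal fluid than after mock insemination (SE 0.26, 95% interval 1.17 to 2.32) and 1.73 higher after semen (SE 0.26, 1.16 to 2.30). Against Hayes saline it was 1.35 higher after seminal fluid (SE 0.19, 0.93 to 1.77) and 1.65 higher after semen (SE 0.19, 1.23 to 2.08). Ordered by log2 fold change, this placed Tret1 15th of 11761 genes for seminal fluid and 18th for semen in Experiment 1. In Experiment 2 it was 33rd of 11899 for seminal fluid and 19th for semen. These comparisons share their controls within an experiment and are the ones that chose the gene. For background, pools without overlap on the higher side occurred in 7.23% of genes for seminal fluid against mock, 6.39% for semen against mock, 7.19% for seminal fluid against saline and 7.87% for semen against saline. Of the 11652 genes tested in both experiments, 80 were above all controls in all 4 comparisons, Tret1 among them.

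The spread between pools differed from group to group. In the seminal fluid group of Experiment 1 the coefficient of variation of Tret1 was 30.8%, against 8.30% from counting alone, with replicate C (224 counts) above replicates A and B (139 and 111 counts). In the seminal fluid group of Experiment 2 it was 6.17%, against 7.29% from counting alone, a spread no larger than counting gives. For the lowest library of all, mock replicate B with 26 counts, the exact 95% Poisson interval was 17.0 to 38.1 counts. The interval of the lowest inseminated library, seminal fluid replicate B of Experiment 1 with 111 counts, was 91.3 to 134 counts. Such intervals cover counting error only.

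Seminal fluid was also set against semen, a contrast that did not choose the gene. It does not isolate sperm. By the study's methods, semen was used fresh, while seminal fluid was pooled from many more drones, centrifuged and stored frozen. Both were given at 6 µl, so the amount of seminal fluid received may also have differed. In Experiment 1 Tret1 differed by 0.02 on the log2 scale (SE 0.24, 95% interval -0.51 to 0.54), with an adjusted p of 0.998 in edgeR's quasi-likelihood test. In Experiment 2 seminal fluid was 0.30 below semen on that scale, a log2 fold change of -0.30 (SE 0.18, -0.70 to 0.10), with an adjusted p of 0.377. Pools of seminal fluid and semen overlapped in both experiments. The intervals still allow a difference of about 0.5 in either direction in Experiment 1 and of up to 0.70 lower after seminal fluid in Experiment 2. Leaving out 1 pool moved the Experiment 1 difference between -0.25 and 0.19, and the Experiment 2 difference between -0.44 and -0.14. Of all genes, 0% passed the test for seminal fluid against semen in Experiment 1 and 0.0084% in Experiment 2 by edgeR. In Experiment 1, 680 genes had an unadjusted p under 0.05, DESeq2 called 1 gene and limma-voom 0. The count in Experiment 2 depended on the tool: edgeR and limma-voom called 1 gene each, DESeq2 called 831, edgeR on only the 6 libraries compared called 1201, and 2209 genes had an unadjusted p under 0.05 in edgeR. Tret1 passed in none of these fits. Same-letter pools of seminal fluid and semen deviated together in Experiment 2 (r 0.10 to 0.12 in all 3 pairs), and with a replicate block edgeR called 4 genes, with Tret1 at -0.29 (SE 0.19, adjusted p = 0.458).

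The response of Tret1 did not differ detectably between experiments. For seminal fluid, the log2 fold change of Experiment 2 minus that of Experiment 1 was -0.38 (SE 0.33, 95% interval -1.08 to 0.32, adjusted p = 0.670 in edgeR). For semen the difference was -0.10 (SE 0.33, -0.80 to 0.60, adjusted p = 1.00 in edgeR). In these interaction tests 0.0083% of genes passed for seminal fluid and 0% for semen by edgeR, and for semen 383 genes had an unadjusted p under 0.05 while DESeq2 and limma-voom called 0. For seminal fluid DESeq2 called 99 genes and limma-voom 1. The intervals are wide, and the one for seminal fluid still allows an effect smaller by 1.08 on the log2 scale in Experiment 2.

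The order of the 6 group means was semen and seminal fluid of Experiment 1, semen and seminal fluid of Experiment 2, Hayes saline and mock. Under TMM, the steps between semen and seminal fluid within each experiment and between Hayes saline and mock did not pass the test. The step from seminal fluid of Experiment 1 to semen of Experiment 2 was not tested. The step from seminal fluid of Experiment 2 to Hayes saline was the widest. It is among the comparisons that chose the gene, so it is a description only. Between experiments, the Hayes saline pools differed from the mock pools by 0.05 on the log2 scale (SE 0.25, adjusted p = 0.893 in edgeR). Semen differed by -0.05 (SE 0.22, adjusted p = 0.873) and seminal fluid by -0.34 (SE 0.22, adjusted p = 0.203), Experiment 2 over Experiment 1, with 49.7% and 64.1% of all genes passing.

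These levels across experiments depend on the scaling. With library totals alone, the means were 5.06 CPM after seminal fluid, 5.95 after semen and 1.93 after saline in Experiment 2, and 4.17, 4.31 and 1.32 CPM after seminal fluid, semen and mock insemination in Experiment 1. Saline was then 0.55 higher than mock and passed the test (adjusted p = 0.0819 in edgeR), while semen and seminal fluid of Experiment 2 were 0.47 and 0.28 higher than in Experiment 1 without passing. Under both scalings every inseminated group stood above both control groups.

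GB48934 was likewise higher in every inseminated group than in both controls, at far fewer reads. Its pools had 1.03, 1.06 and 1.09 CPM after seminal fluid in Experiment 1, 1.37, 2.0 and 1.22 CPM after semen, and 0.400, 0.226 and 0.323 CPM after mock insemination. The pools of Experiment 2 had 1.09, 0.702 and 0.801 CPM after seminal fluid, 1.21, 1.02 and 1.22 CPM after semen, and 0.334, 0.394 and 0.280 CPM after saline. Each inseminated pool lay above each control pool of its experiment.

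GB48934 rose after semen against mock insemination (log2 fold change 2.25, SE 0.34, adjusted p = 0.0659 in edgeR) and after semen against Hayes saline (1.75, SE 0.24, adjusted p = 0.0254). It also rose after seminal fluid against saline (1.35, SE 0.25, adjusted p = 0.0866). Seminal fluid against mock insemination gave 1.73 (SE 0.35), with an adjusted p of 0.149 that did not pass. The share of all genes called higher was 0.128% and 0.303% for semen against mock and saline, and 0.153% and 0.353% for seminal fluid against mock and saline. GB48934 was known to move from earlier results, so its calls are no independent support for those of Tret1.

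Most of these calls were lost when 1 library was left out. The call for semen against mock was lost without any 1 of the 6 libraries, with adjusted p of 0.110 to 0.362 in edgeR and log2 fold changes of 1.98 to 2.46. For semen against saline it was lost without saline replicate B or C or semen replicate A or C (adjusted p of 0.110 to 0.136). For seminal fluid against saline it was lost without any library except saline replicate C (adjusted p of 0.108 to 0.244 for the others). The log2 fold change stayed at 1.15 or more in each of these fits.

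Seminal fluid and semen did not differ for GB48934 by the test, with -0.52 in Experiment 1 (SE 0.30, 95% interval -1.17 to 0.14, adjusted p = 0.892 in edgeR) and -0.40 in Experiment 2 (SE 0.22, -0.89 to 0.09, adjusted p = 0.346). In Experiment 1 each seminal fluid pool lay below each semen pool, as was the case for 6.11% of all genes. In Experiment 2 the pools overlapped.

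Tret1 had more reads than GB48934 in every pool. For each read of GB48934 there were 4.29 of Tret1 over all libraries, with single pools between 2.43 and 6.40 and a median of 4.64. Summed over pools, the ratio in Experiment 1 was 4.99 after seminal fluid, 3.36 after semen and 4.92 after mock insemination. The ratio in Experiment 2 was 4.68 after seminal fluid, 4.38 after semen and 4.72 after saline. These are ratios of reads and not of transcripts, since the lengths of the gene models were not used here.

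Semen replicate B of Experiment 1 had the highest share of GB48934 reads of all pools, with 202 reads of Tret1 and 83 of GB48934. There GB48934 took 29.1% of the reads of the pair (95% Wilson interval 24.2% to 34.6%), whereas in the other 17 pools it took 13.5% to 21.8%. Intervals of several other pools overlapped with this one, both with few reads of GB48934 and with more. They reached 32.6% in mock replicate B (5 reads) and 32.8% in saline replicate A (12 reads). They also reached 29.3% in seminal fluid replicate B of Experiment 1 (31 reads) and 26.4% in seminal fluid replicate A of Experiment 2 (47 reads). Other intervals did not overlap with it, such as that of semen replicate A of Experiment 1 (52 reads, up to 24.0%). Semen replicate B was also the pool with the highest GB48934 level, and not the one with the highest Tret1 level. The 3 semen pools of Experiment 1 had ratios of 4.27, 2.43 and 4.10, all below the mock pools, which ran up to 5.20 with a lowest value of 4.73. Those mock ratios rest on only 5 to 11 reads of GB48934 per pool.

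**Figure D2:**
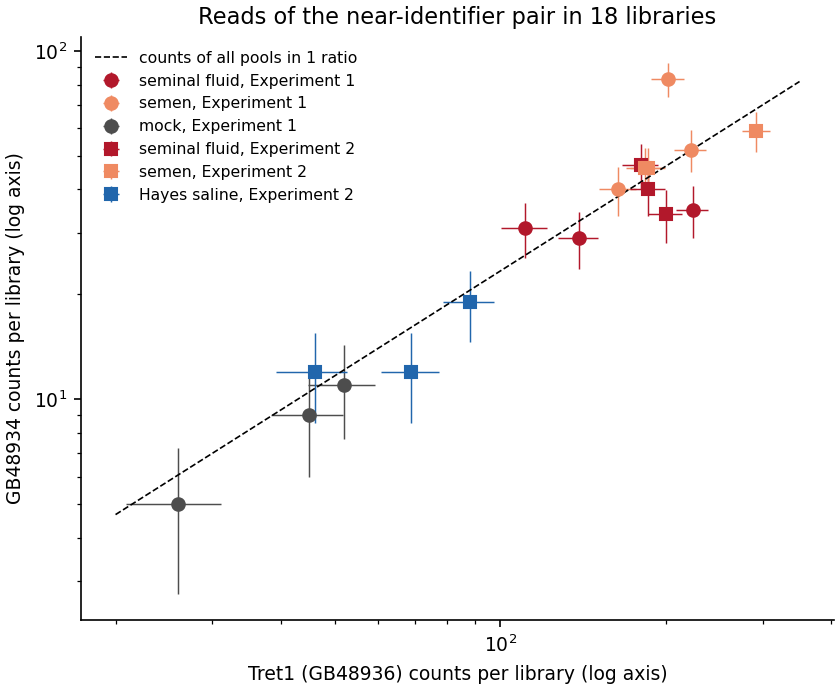
Read counts of Tret1 (x, log axis) and GB48934 (y, log axis) in each of the 18 libraries, with bars of 1 Poisson SD. The dashed line marks the ratio over all libraries, 4.29 to 1. Tret1 has more reads than GB48934 in every pool, and semen replicate B of Experiment 1 lies above it with 83 GB48934 reads.

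Within the inseminated pools alone, where neither gene's difference from controls plays a part, the 2 levels were not clearly related. Pearson's r of log2 CPM was 0.01 over the 6 inseminated pools of Experiment 1 (exact permutation p = 0.958, adjusted 0.958, Spearman's rho 0.14, p = 0.803). For Experiment 2, r was 0.70 over 6 pools (exact permutation p = 0.113, adjusted over both 0.225, rho 0.83, p = 0.0583). Without the 2 pools farthest from the median of Tret1, r was -0.09 in Experiment 1 and 0.32 in Experiment 2. With library totals alone in place of TMM these values were 0.72 and 0.09, and over all 6 pools 0.25 and 0.66, so that the relation depended on the pools and the scaling taken. Pools also share their library and its scaling across the 2 genes. The 6 pools held both seminal fluid and semen and were not centred by treatment. A step between these treatments therefore enters r, and the permutation ignored it. With deviations from group means over all 18 pools, r was 0.38 under TMM and 0.52 with library totals alone.

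Reads that fit several places were not given to any gene and made up 5.69% to 8.21% of all reads, and reads that overlapped several gene models made up 4.00% to 4.63%. Whether the models of the pair overlap or share sequence was not tested.

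The rows numbered near Tret1 moved in both directions rather than as a block. The 19 other rows within 10 identifiers were all tested, and GB48934 was the only one called against a control by edgeR: 1 of 19 for semen against mock, 0 of 19 for seminal fluid against mock, 1 of 19 for semen against saline and 1 of 19 for seminal fluid against saline. In the same order, 4, 7, 7 and 2 of the 19 had an unadjusted p under 0.05 in edgeR. Over all genes these counts were 600 and 1510 of 11761, and 1120 and 1253 of 11899. For seminal fluid against mock, 3 of the 7 were higher and 4 lower. There DESeq2 called 3 of the 19 and 281 of all genes, and limma-voom called 0 and 17. By edgeR's adjusted p, all genes were called at 0.128%, 0.162%, 0.328% and 0.429% in the 4 comparisons. Rows above all controls numbered 4, 4, 5 and 2 of 19 in the same order, GB48934 included. These were larger shares than the 6.39%, 7.23%, 7.87% and 7.19% of all genes. Rows below all controls numbered 3, 4, 5 and 1 of 19. The shares of all genes were 5.3%, 13.6%, 5.98% and 8.32%, larger only in the last comparison. Over the 18 pools, with each experiment centred, Pearson's r of log2 CPM with Tret1 was 0.88 for GB48942 and 0.75 for GB48935. It was 0.70 for GB48941 and 0.58 for GB48938 (ranks 181 and 498 of 11651 genes). On the other side it was -0.61 for GB48929, -0.63 for GB48933 and -0.64 for GB48930. The median log2 fold changes of the 19 rows were -0.01, -0.03, 0.02 and 0.04, beside -0.01 in each comparison over all genes. Neighbouring numbers were not checked against positions in the genome.

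GB48935, numbered between the pair, was a far more heavily read row. In Experiment 1 it averaged 89.4 ± 17.0 CPM after seminal fluid, 105 ± 10.1 CPM after semen and 62.9 ± 8.19 CPM after mock insemination. Means in Experiment 2 were 41.0 ± 5.92 CPM after seminal fluid, 54.9 ± 5.29 CPM after semen and 34.6 ± 3.87 CPM after saline (SD, n = 3 each). Its inseminated pools lay above the controls in 3 of the 4 comparisons, the exception being seminal fluid against saline.

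None of the fold changes of GB48935 against controls passed edgeR's test on the libraries of an experiment with TMM scaling. They were 0.52 after seminal fluid (SE 0.14, adjusted p = 0.234) and 0.74 after semen (SE 0.14, adjusted p = 0.127) against mock, and 0.25 (SE 0.13, adjusted p = 0.516) and 0.66 (SE 0.13, adjusted p = 0.121) against saline. DESeq2, used as an alternative, called the differences from mock after both treatments and from saline after semen (adjusted p of 0.000439 to 0.0564). Other fits of edgeR called semen against mock with library totals alone (adjusted p = 0.0970), semen against saline with a replicate block (0.0507), and semen and seminal fluid against mock with all 18 libraries (0.0333 and 0.0756). GB48935 was lower in the saline pools than in the mock pools (log2 fold change -0.82, adjusted p = 0.000479 in edgeR), with means of 42.1 CPM after saline and 52.5 CPM after mock insemination when library totals alone were used.

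A further row, GB48942, was picked out after its values were seen, since it too was above all controls in all 4 comparisons. It averaged 43.9 CPM after seminal fluid, 46.4 after semen and 29.2 after mock insemination in Experiment 1, and 34.4, 37.3 and 28.8 CPM after seminal fluid, semen and saline in Experiment 2. Its log2 fold changes were 0.26 to 0.67, with adjusted p of 0.153 to 0.393 in edgeR. DESeq2 called it against mock after seminal fluid and semen and against saline after semen (adjusted p of 0.00126 to 0.0276), and edgeR with all 18 libraries called it against mock after seminal fluid (0.0176) and semen (0.0141).

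**Figure D3:**
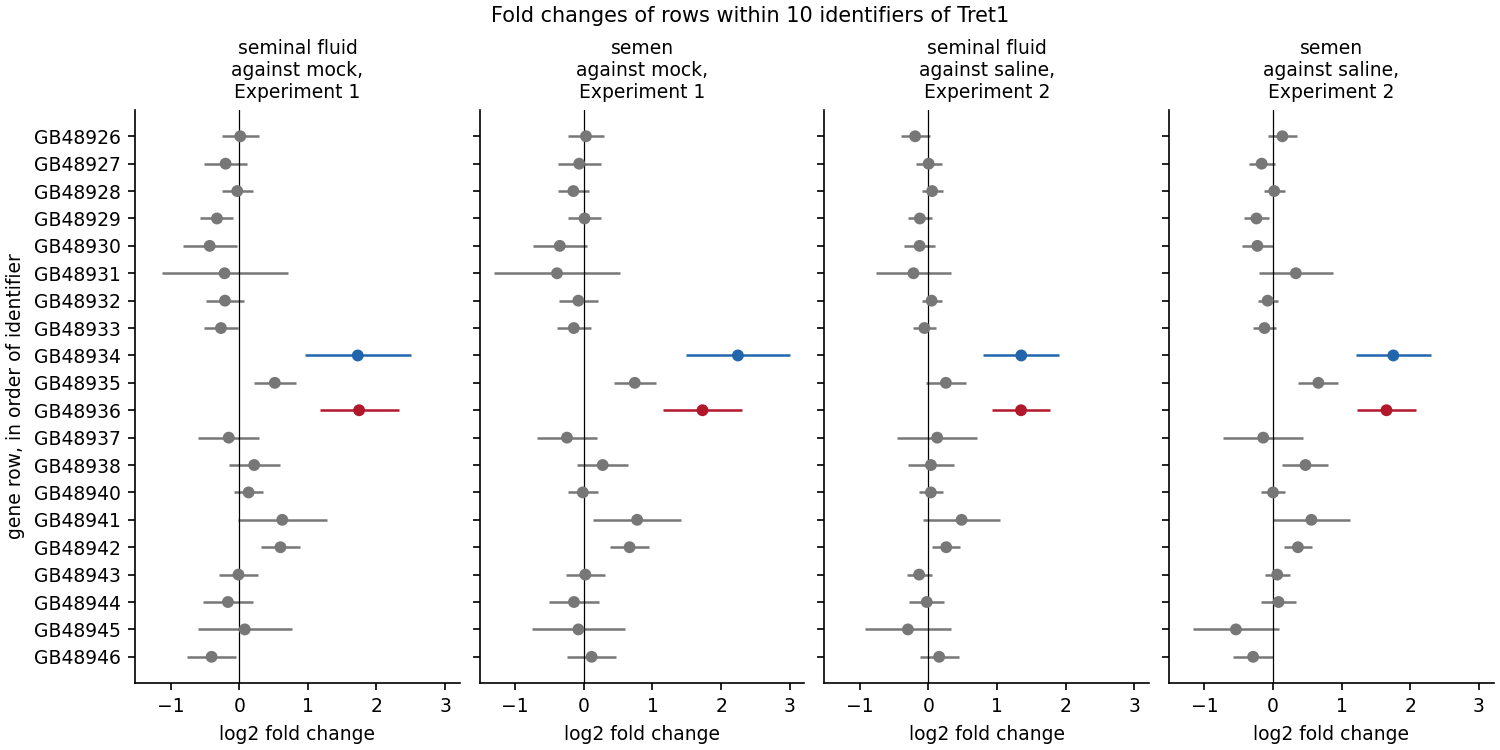
Log2 fold changes (points) with 95% intervals (lines) of the 20 rows within 10 identifiers of Tret1, in the 4 comparisons against controls. Tret1 (red) and GB48934 (blue) lie between 1.35 and 2.25, while the row between them, GB48935, lies between 0.25 and 0.74.

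The genes whose levels followed Tret1 most closely were sought among the 11651 other genes tested in both experiments, by Pearson's r of log2 CPM over the 18 pools with each experiment centred. They were norpA (r 0.98), ADAM10-like (0.95), Hemicentin-1-like (0.94), GB48934 (0.94), cell adhesion molecule 3-like (0.94) and chaoptin (0.93). In all, 16 genes had an r of 0.9 or more and 67 had 0.8 or more. All 6 are among the 80 genes above all controls in all 4 comparisons, so these values include the step between inseminated and control pools.

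norpA encodes the phospholipase C that carries the light signal in Drosophila photoreceptors. It had a mean of 408 CPM after seminal fluid, 392 after semen and 266 after mock insemination in Experiment 1. In Experiment 2 the means were 329 CPM after seminal fluid, 338 after semen and 235 after saline. Its fold changes were smaller than those of Tret1, at 0.63 and 0.56 on the log2 scale after seminal fluid and semen against mock and 0.49 and 0.51 against saline.

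norpA also followed Tret1 from pool to pool inside the groups, with r 0.79 of the deviations from group means, the 6th highest of all genes. The other 5 had 0.18 to 0.38. With library totals alone in place of TMM, a setting chosen after the data were seen, the value for norpA was 0.68 and its rank 87, so that its place depended on the scaling.

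Chaoptin, an adhesion protein of the photoreceptor cell surface in Drosophila, had means of 9.64 CPM after seminal fluid, 10.3 after semen and 3.40 after mock insemination in Experiment 1. Means in Experiment 2 were 3.55, 5.46 and 1.45 CPM after seminal fluid, semen and saline. Its log2 fold changes, 1.52 and 1.60 against mock and 1.30 and 1.90 against saline for seminal fluid and semen, were near those of Tret1. The means of Experiment 2 were lower than those of Experiment 1 for each treatment and for the controls, also with library totals alone (6.50 against 8.43 CPM after semen).

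Hemicentin-1-like, named for an extracellular matrix protein, showed a wider step. It averaged 11.1 CPM after seminal fluid, 9.54 after semen and 1.03 after mock insemination in Experiment 1, and 13.8, 12.4 and 1.12 CPM after seminal fluid, semen and saline in Experiment 2. ADAM10-like, named for a membrane-bound protease, had log2 fold changes of 1.12 and 1.13 after seminal fluid and semen against mock, and 0.72 and 1.01 against saline. Cell adhesion molecule 3-like had 0.94 and 1.02 against mock, and 0.94 and 0.85 against saline.

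**Figure D4:**
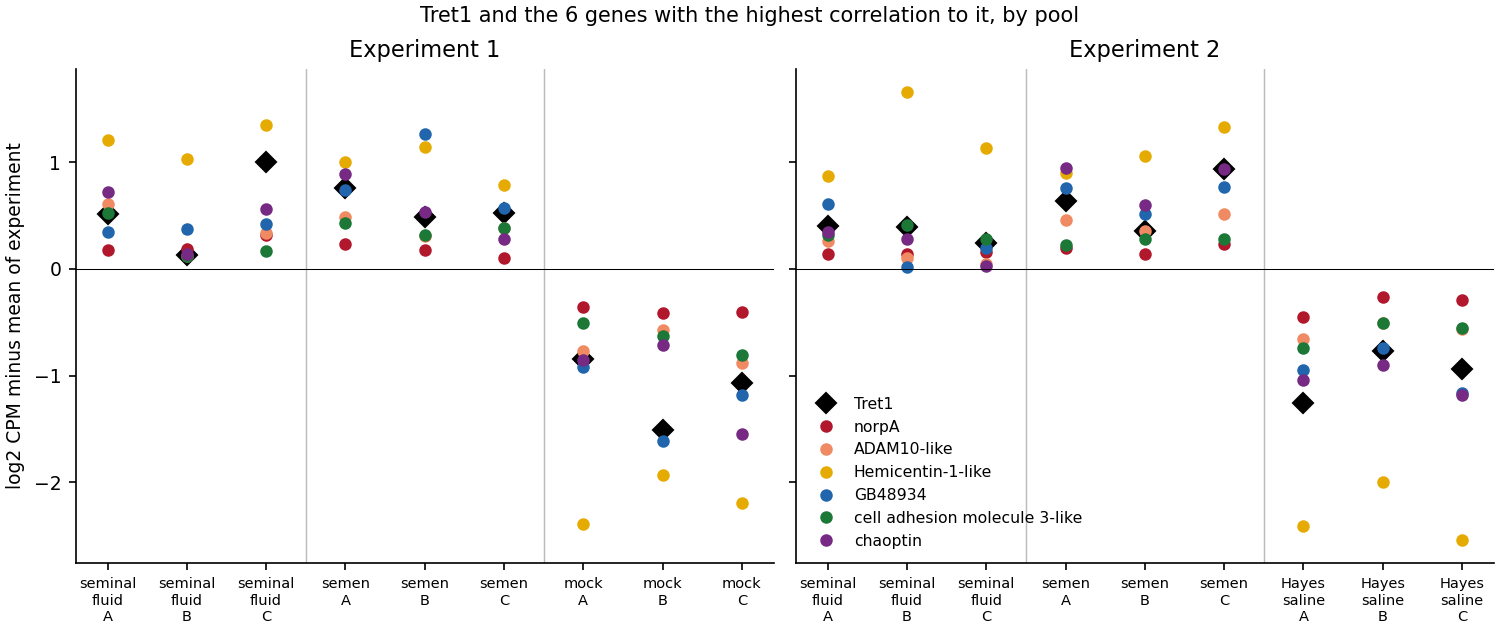
Log2 CPM minus the mean of the experiment for Tret1 (black diamonds) and the 6 genes with the highest r to it (0.93 to 0.98), in each pool. All 7 are above their mean in the inseminated pools and below it in the mock and Hayes saline pools, with the widest step in Hemicentin-1-like and the narrowest in norpA.

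norpA and chaoptin act in Drosophila photoreceptors and belong to the photoreceptor list, which was measured as a sum and by member. It leaves out other vision genes named by the study, such as ninaA, Arr2 and TRPL. Whether its members are limited to photoreceptors in these brains was not tested. Of its 5 members (chaoptin, norpA, inaD, ninaC and TRP) none was at 0 in any pool. Their summed level was 538 to 601 CPM after seminal fluid, 569 to 577 after semen and 380 to 431 after mock insemination. The sums of Experiment 2 were 508 to 559 CPM after seminal fluid, 481 to 508 after semen and 357 to 441 after saline. Most of each sum was norpA.

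Photoreceptor genes did not all follow Tret1. By edgeR, 2 of 5 were called higher after seminal fluid and 1 of 5 after semen in Experiment 1, and 2 of 5 after each treatment in Experiment 2, beside 0.153% and 0.128% of all genes for seminal fluid and semen in Experiment 1 and 0.353% and 0.303% in Experiment 2. None was called lower. Over the 18 pools, r with Tret1 was 0.26 for inaD, 0.05 for ninaC and -0.18 for TRP. norpA, chaoptin, ninaC and TRP were named by the study for moving in these same samples, so they are not independent evidence of a direction. The study counted ninaC and TRP as differentially expressed by DESeq2, over all its comparisons, seminal fluid against semen included. The part of photoreceptor RNA in the level of Tret1 was not tested. Of 3 neuronal genes (Camkii and 2 neuroligin rows), 0 passed edgeR's test against a control. In each of the 4 comparisons 2 of 3 had an unadjusted p under 0.05, beside 600 to 1510 of all genes. DESeq2 called 2 of 3 in each, where it called 94 to 330 genes in all, and limma-voom called 0. The summed level of the 3 was 192 to 464 CPM over all pools. Most of it was Camkii, whose means went both ways against controls. Both neuroligin rows had higher means in every inseminated group than in its control. In Experiment 1 they had 7.86 and 9.45 CPM after semen, and 4.02 and 5.47 after mock insemination. Over the 18 pools their r with Tret1 was 0.86 and 0.87 (ranks 35 and 31), and that of Camkii 0.08. The names of these 3 genes also came from the study's tables of these same samples. They are therefore not independent evidence of a direction either.

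In seminal fluid replicate C of Experiment 2, the most abundant gene took 8.90% of counts, against 0.840% and 0.949% in the other pools of its group. Shares in Experiment 1 were 2.98% to 9.96%, the highest in mock replicate C. Tret1 was at 3.73 CPM under TMM in seminal fluid replicate C, the lowest value among the inseminated pools of Experiment 2. The log2 fold change of seminal fluid against saline stayed between 1.23 and 1.46 whichever library was left out.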

How the data were processed

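Each deposited file holds unnormalized read counts, 1 per gene model. To make them, the authors sequenced stranded libraries from 1 end, trimmed the reads (Trimmomatic), took out ribosomal RNA (SortMeRNA), aligned the rest to honeybee assembly 4.5 (STAR 2.4.2a) and ran htseq-count. The strand setting of the counting is not given in the sources used here. Totals of unassigned reads were left out. They comprised reads in no gene (16.6% to 20.7%), ambiguous reads (4.00% to 4.63%) and reads aligned to several places (5.69% to 8.21%), and 68.8% to 72.1% of reads were assigned to genes.

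Counts were fitted in R 4.3.3 with the quasi-likelihood model of edgeR 4.0.16, over the 9 libraries of an experiment or all 18 for contrasts between experiments. Genes needed at least 10 counts in at least 3 libraries. Adjusted p values are two-sided Benjamini-Hochberg values over all genes tested, called under 0.1. Log2 CPM used a prior count of 2. DESeq2 1.42.0 and limma 3.58.1 served as alternatives, and the fits were tested on simulated data. No libraries of a group were near-identical (lowest chi-square per gene 18.4). Replicates were pools of brains, and p values measure the spread between them.

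Tret1, GB48934, the lists and the tests were chosen with earlier results of these data known. Named besides these were GB48935, rows within 10 identifiers that were called against a control, and the 6 genes with the highest r to Tret1. Further rows within 10 identifiers were named for their r with Tret1 after it was seen. RefSeq names (Amel_HAv3.1) paired 0 of the identifiers. Names came from the study's tables, and lists of sugar transport, trehalose, glycolysis and insulin genes and of glial, fat body, gland, muscle and blood cell markers were not analysed here for want of names. Sequences were not used here.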

Additional observations from a re-analysis of the deposited data

How the results depend on the processing

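The 4 log2 fold changes of Tret1 against controls kept their direction under all alternatives run: 1.66 to 1.77 for seminal fluid and 1.70 to 1.76 for semen against mock, and 1.34 to 1.38 and 1.62 to 1.66 against saline. With 1 library left out they were 1.48 to 1.93, 1.56 to 1.90, 1.23 to 1.46 and 1.49 to 1.79 in the same order. Since these comparisons chose the gene, its kept direction was largely fixed in advance. It does not show Tret1 to be steadier than GB48934. Seminal fluid against semen passed in no fit for Tret1. Hayes saline against mock depended on the scaling, with 0.55 under library totals alone (adjusted p = 0.0819 in edgeR). GB48934 was called higher in 3 of the 4 comparisons against controls, but in 1 with limma-voom, 1 with a replicate block and 1 when only the 6 libraries compared were fitted, and in up to 4 with other settings. Beside GB48934, other neighbours were called under some settings: counting GB48934, DESeq2 called 3 rows, library totals alone 2, the replicate block 2 and the fit of all 18 libraries 5, against 1 in edgeR. Of the 6 genes most like Tret1, 2 were shared with the ranking by Spearman's rho and 3 with that by uncentred levels. Same-letter deviations had correlations of -0.22 to 0.12 (18 pairs, median 0.00). Only for seminal fluid and semen of Experiment 2 were all 3 pairs over 0.1, and there the block changed no call of Tret1 or GB48934. With the replicate block, the differences of Tret1 between experiments were -0.38 for the seminal fluid effect and -0.13 for the semen effect. GB48934 had 5 to 19 counts in control pools. The causes of these shifts were not tested.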
